A study of Mus musculus with 120 samples.

Results

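Foxp1 and Foxp2 are genes of the FOXP subfamily of forkhead transcription factors, and they are 2 of the 16538 genes counted in projection neurons of the mouse thalamus. The rule takes them by gene symbol, with no threshold on a measured value, and each symbol matched 1 column of the count table. The study asked how projection neurons differ between thalamic nuclei, with 22 nuclei dissected after tracer was placed in a region their axons reach. Neurons were labelled by a retrograde tracer, dissected from slices, sorted by hand under fluorescence and sequenced as small pools, in 120 libraries of 24 groups. The tracer was DiI, a lipophilic dye, in 92 libraries and a retrograde virus, rAAV2retro-GFP or rAAV2retro-tdTom (AAV below), in 28. From the striatum, AAV labelled the midline nuclei PVT (paraventricular) and IMD (intermediodorsal), the intralaminar nuclei CL (central lateral), CM (central medial), PCN (paracentral) and PF (parafascicular), and the subparafascicular area, SPA. CM was also labelled with DiI. DiI in primary visual cortex labelled LGd, the dorsal lateral geniculate nucleus, and LP, the lateral posterior nucleus, with CTB in the eyes also listed. PO (posterior) and VB (ventrobasal) were labelled from barrel cortex, and MD (mediodorsal) and VPMpc (parvicellular ventral posteromedial) from orbital and insular cortex. VA (ventral anterior), VM (ventromedial) and VL (ventrolateral) were labelled from primary motor cortex, with a virus in SNr and DCN also listed. Retrosplenial cortex gave LD (laterodorsal), AV (anteroventral) and AD (anterodorsal), and cingulate cortex gave RE (reuniens), IAD (interanterodorsal) and AM (anteromedial). AM also had 1 AAV library. The metadata table gives 119 libraries as wildtype and 1 of VA (library 6, whose levels lay inside the range of the other VA libraries for Foxp1 and above it for Foxp2) under another entry, and no group received a drug or carried a mutation under test. Recorded ages ran from 55 to 447, in a unit the table does not name, and 13 libraries pooled cells of several animals. Groups held 1 to 9 libraries, and some libraries of different nuclei came from the same animal.

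Forkhead proteins bind DNA through a winged-helix domain, and FOXP proteins act mostly as repressors after pairing with themselves or with each other through a leucine zipper. Foxp1 and Foxp2 are both known from neurons of the striatum, and Foxp2 also from the thalamus, from deep cortical layers and from cerebellar Purkinje cells. In humans, disruption of FOXP2 is known for a disorder of speech and language, and disruption of FOXP1 for a developmental disorder with intellectual disability. Because FOXP1 and FOXP2 can form mixed pairs, the relative amount of each gene in a neuron is of interest beside its own level.

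Both genes lie on chromosome 6 of mm10 in GENCODE M21, the annotation that matched the identifiers of the count table. Foxp1 (ENSMUSG00000030067.17) runs on the minus strand at chr6:98925338-99522721 with 31 annotated transcripts and 13751 exon bases. Of these bases 435, or 3.16%, are shared with Gm20696 and Gm49348, which are not analysed here. Foxp2 (ENSMUSG00000029563.16) runs on the plus strand at chr6:14901349-15441977 with 20 transcripts and 16346 exon bases, of which 0 are shared with another gene.

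Total counts per library ran from 8159497 to 26444831, from 14 to 200 cells. All 120 libraries expressed the thalamic neuron genes Slc17a6, at 518 CPM or more, and Tcf7l2, at 813 CPM or more (CPM, the count scaled by library size with TMM factors). The summed level of the 3 oligodendrocyte markers Mbp, Mog and Mobp had a median of 16.8 CPM over libraries. It reached 869.7 CPM in a VA library. Its median was 3.34 CPM in the 7 PO libraries and 87.8 CPM in the 4 VB libraries. Of the microglia markers Csf1r was in the table and had its highest level, 47.9 CPM, in a VB library. The part of these cells in the Foxp1 and Foxp2 levels was not tested. In pools of cells, fewer expressing cells and less RNA per cell cannot be told apart.

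Both genes differed between nuclei, and their F values were among the highest. Over the 22 nuclei, with CM from its AAV and AM from its DiI libraries, edgeR's quasi-likelihood F was 27.4 for Foxp1 (adjusted p = 3.79e-32) and 21.7 for Foxp2 (adjusted p = 4.85e-28). These were the 41st and 94th largest F among 16527 genes, of which 55.1% passed an adjusted p under 0.05. Adjusted p-values are Benjamini-Hochberg values over all genes tested, here and below. Libraries of a group are separate pools of cells, in part from separate animals.

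Foxp2 was lowest in AD and AV, the anterior nuclei labelled from retrosplenial cortex, and highest in SPA, LP and PO. In AD it had 0.127, 5.06, 14.3 and 1.99 CPM, from 1, 59, 182 and 24 counts. In AV it ran from 0.554 to 40.4 CPM in 8 libraries, with a median of 16.6 CPM. All 12 libraries of these nuclei lay below all 104 libraries of the other 20 nuclei, whose lowest was 56.7 CPM in a VB library. Above this step stood IAD at 77.0 ± 26.6 CPM (SD, n = 3), LGd at 79.5 ± 8.63 CPM (n = 5), AM at 84.9 ± 21.0 CPM (n = 4) and VB at 110.0 ± 85.7 CPM (n = 4). VM, VA, VL, RE and LD followed with means of 130.2 to 164 CPM, and PF, CL, PVT, PCN and CM, all striatum-labelled, with means of 204 to 283 CPM. At the high end VPMpc had a mean of 377 ± 135 CPM (n = 6), IMD of 424 ± 31.0 CPM (n = 4) and MD of 425 ± 79.1 CPM (n = 6). PO ran from 389.5 to 732 CPM with a median of 561 CPM in 7 libraries. LP ran from 286 to 852 CPM with a median of 543 CPM in 9 libraries. SPA had 648, 676, 609 and 434 CPM. Of the 21 steps between neighbours in this order, 1 separated nuclei whose libraries did not overlap, the step between AV and IAD; the same step was the sole one at which mean ± SD did not overlap. The mean in SPA was 110.2 times the mean in AD, which is a ratio of means over libraries.

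**Figure D1:**
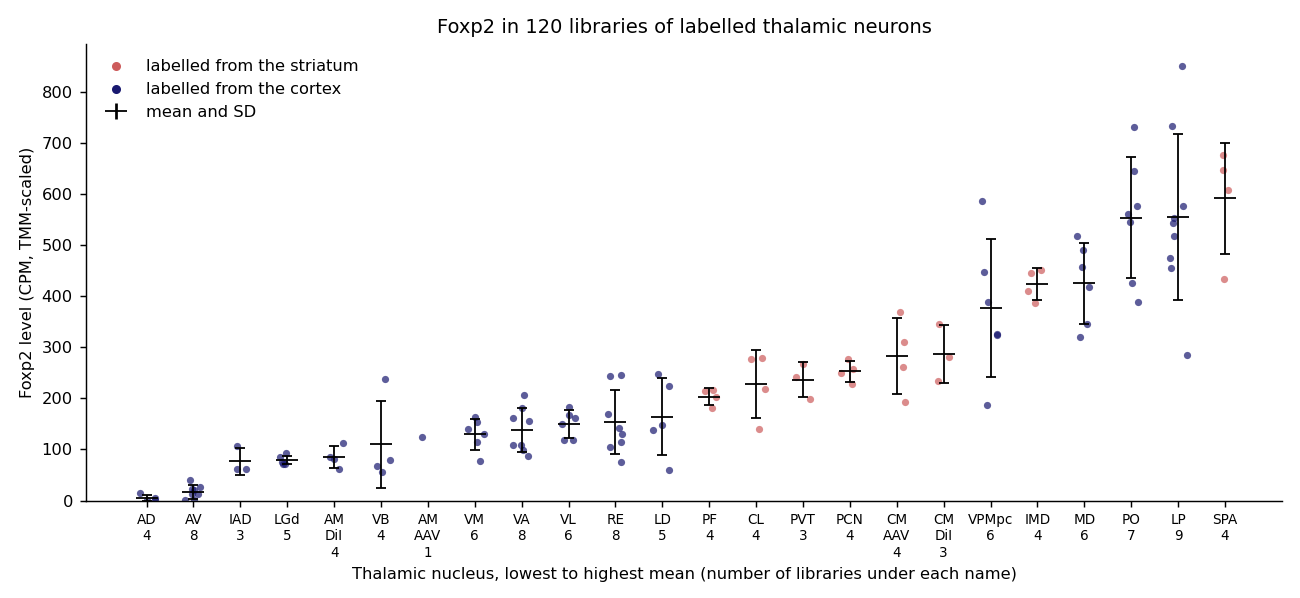
Foxp2 in all 120 libraries, in CPM with TMM-scaled library sizes on the vertical axis and nuclei from the lowest to the highest mean on the horizontal axis; points are libraries, bars are mean and SD, AM and CM are split by tracer, and colour separates striatum-labelled from cortex-labelled groups. The 12 AD and AV libraries lie at or under 40.4 CPM, and the LP, PO and SPA libraries lie between 286 and 852 CPM.

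Foxp1 followed another order, with its highest levels in VPMpc and in AM and IAD, and its lowest in VB. VPMpc ran from 649.5 to 1397 CPM with a median of 869 CPM in 6 libraries. Its 2 libraries of animals recorded at an age above 400 had 895 and 1397 CPM, against 649.5 to 873 CPM in the other 4. These sets were made on separate amplification dates, so age and date cannot be told apart, and the split was not tested. The VPMpc mean of 889 ± 273 CPM was the highest, but without the library at 1397 CPM it was 787 ± 124 CPM (n = 5), under the mean of AM, 817 ± 156 CPM (n = 4). AM had 799, 708, 1043 and 717 CPM in its DiI libraries, and IAD had 773, 703 and 847 CPM. These 13 libraries lay above all but 1 of the 103 libraries of the other 19 nuclei. The exception was an MD library at 714 CPM, while the median of the 6 MD libraries was 279 CPM. SPA, next in order, had 506, 471, 447 and 398 CPM. Its libraries did not overlap those of IAD, and of the 21 steps between neighbours this was the 1 step with no overlap, both of ranges and of mean ± SD. Below SPA came MD with a mean of 362 ± 186 CPM (n = 6), PVT with 272 ± 52.6 CPM (n = 3) and RE with 223 ± 84.0 CPM (n = 8). At the low end LD averaged 44.4 ± 28.1 CPM (n = 5) and VB 35.6 ± 14.4 CPM (n = 4). The nuclei between them, from PF at 210.0 CPM through IMD, CM, PCN, PO, VA, CL, AV, VM, LGd, LP and VL to AD at 46.4 CPM, each overlapped their neighbours. In VB, where Foxp1 was lowest, the libraries had 29.7, 18.9, 41.4 and 52.2 CPM. With unscaled library sizes the order at the top changed, with means of 850 CPM in AM, 801 CPM in IAD and 780 CPM in VPMpc. SPA then had a mean of 522 CPM, and MD and PVT each of 293 CPM. Foxp1 was counted in every library, and its lowest level was 12.8 CPM, in an LD library.

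**Figure D2:**
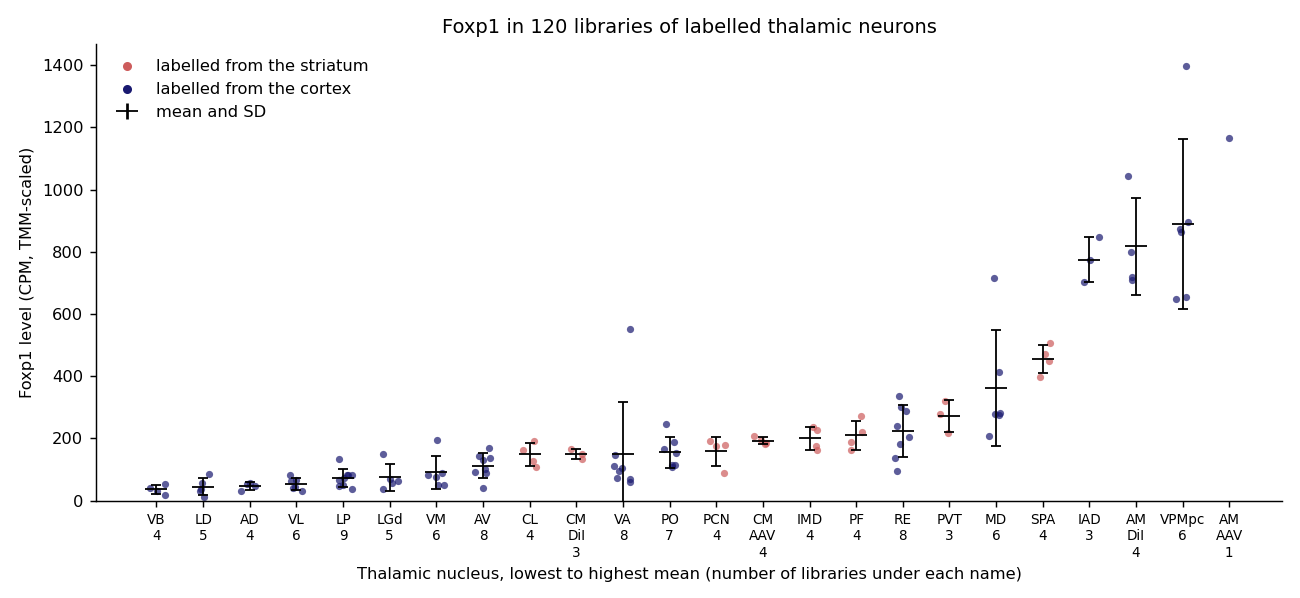
Foxp1 in all 120 libraries, drawn as for Foxp2, in CPM on the vertical axis. The DiI libraries of IAD, AM and VPMpc lie between 649.5 and 1397 CPM, and the 1 AAV library of AM at 1167 CPM.

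In the pair of nuclei labelled from primary visual cortex, Foxp2 was higher in LP, a higher-order visual nucleus, than in LGd, the relay of retinal input, and Foxp1 did not pass the test. The LP libraries had 286 to 852 CPM of Foxp2 with a median of 543 CPM, against 92.2, 84.4, 72.5, 75.8 and 72.4 CPM in the LGd libraries. Every LP library lay above every LGd library. The log2 difference was 2.80 (SE 0.42, adjusted p = 3.79e-07, edgeR's quasi-likelihood test), a 6.98-fold higher level, where 3.62% of genes passed. The 7 LP libraries made on the same amplification date as LGd had 455 to 852 CPM. Foxp1 stood at 72.4 ± 28.3 CPM (n = 9) in LP and 74.8 ± 42.7 CPM (n = 5) in LGd. Its log2 difference of -0.05 had a 95% interval, taken from the SE, of -0.69 to 0.59.

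In the barrel cortex pair both genes were higher in PO, the higher-order somatosensory nucleus, than in VB, the relay. Foxp2 had 389.5 to 732 CPM with a median of 561 CPM in the 7 PO libraries, against 78.8, 238, 56.7 and 66.7 CPM in the 4 VB libraries. Foxp1 had 109 to 246 CPM with a median of 152 CPM in the PO libraries, against 29.7, 18.9, 41.4 and 52.2 CPM in the VB libraries. For both genes the groups did not overlap. Without VB library 2, at 238 CPM, the log2 difference of Foxp2 was 3.04. With all libraries it was 2.33 (SE 0.46, adjusted p = 0.000285) for Foxp2 and 2.13 (SE 0.40, adjusted p = 0.000166) for Foxp1, and 2.65% of genes passed in this comparison. Within the amplification date that both nuclei share, the 3 PO libraries had 426 to 577 CPM of Foxp2, against 56.7 to 238 CPM in the 4 VB libraries. Foxp1 within that date had 109 to 164 CPM in PO, against 18.9 to 52.2 CPM in VB. The VB libraries carried the higher oligodendrocyte marker sum given above, and its part in these differences was not tested.

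Among the motor cortex nuclei Foxp1 was higher in VA than in VL, and Foxp2 passed no test. Foxp1 had 60.6 to 553 CPM with a median of 99.0 CPM in the 8 VA libraries, against 31.3 to 80.9 CPM with a median of 52.5 CPM in the 6 VL libraries. The VA library at 553 CPM lay apart from the other 7, which did not exceed 147 CPM. The log2 difference was 1.49 (SE 0.33, adjusted p = 0.00253), with 2.21% of genes called. Without that VA library it was 0.80 and did not pass (adjusted p = 0.148), nor did it pass with limma voom and the animal as a random block (1.14, adjusted p = 0.0845) or in a fit of the compared groups alone (1.49, adjusted p = 0.12). Within the 2 amplification dates shared by VA and VL, none of which holds that library, the 3 VA libraries of each date lay above the VL libraries. On the first date VA had 60.6 to 147 CPM, against 31.3 and 40.6 CPM in VL, and on the second VA had 94.0 to 110.3 CPM, against 42.6 to 80.9 CPM in VL.

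In VM, which receives basal ganglia output, Foxp1 had 49.0 to 193 CPM with a median of 79.1 CPM, against a median of 52.5 CPM in VL. This was a log2 difference of 0.74 (adjusted p = 0.344) with 1.69% of genes called. Without VM library 5, which had the 193 CPM, it was 0.37. VA minus VM gave 0.75 (adjusted p = 0.362) with 0.127% of genes called, and 0.058 without VA library 4, which had the 553 CPM. Of the 2 dates that VA and VM share, the ratio of VA to VM means was 1.03 on the date without that library and 4.44 on its own. In the 3 animals that gave both a VM and a VL library Foxp1 was higher in VM each time. The mean of Foxp2 was 139 ± 43.7 CPM in VA (n = 8), 130.2 ± 30.4 CPM in VM (n = 6) and 149.9 ± 26.8 CPM in VL (n = 6). The 95% intervals of its log2 differences were -0.94 to 0.54 for VM minus VL, -0.80 to 0.58 for VA minus VL and -0.60 to 0.78 for VA minus VM.

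Among the nuclei labelled from retrosplenial cortex, LD had more Foxp2 than AV and, in the fit of all libraries, less Foxp1. AV and AD are anterior nuclei, and LD is a lateral neighbour with the same target. Foxp2 had 59.3, 225, 148, 249 and 138 CPM in the LD libraries, against 0.554 to 40.4 CPM with a median of 16.6 CPM in the 8 AV libraries. Every LD library lay above every AV library. The log2 difference was 3.25 (SE 0.38, adjusted p = 4.49e-11), a 9.52-fold higher level, where 5.5% of genes passed. Foxp1 had 29.7, 54.9, 86.7, 38.1 and 12.8 CPM in the LD libraries, against 39.3 to 169 CPM with a median of 116 CPM in AV. It was lower in LD, with overlap, by a log2 difference of -1.34 (SE 0.35, adjusted p = 0.00914). In the 3 animals that gave both nuclei, Foxp2 was higher and Foxp1 lower in LD each time. The Foxp1 call did not hold without LD library 5 (adjusted p = 0.0584) or without the libraries of animals recorded at an age above 400 (log2 difference -0.98, adjusted p = 0.146), nor with limma voom and the animal as a random block (-1.50, adjusted p = 0.1004) or in a fit of the compared groups alone (-1.36, adjusted p = 0.121). With the amplification date as a term the log2 differences were 5.30 for Foxp2 and -2.14 for Foxp1 (adjusted p = 2.25e-10 and 0.0203). On the date shared with LD all AV libraries came from animals recorded at an age above 400, so that term also takes up age in AV.

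AD had less of both genes than AV in the fit of all libraries. Foxp1 had 29.9, 46.3, 56.4 and 53.0 CPM in AD, against 39.3 to 169 CPM in AV, a log2 difference of -1.28 (SE 0.38, adjusted p = 0.0250). Foxp2 differed by -1.66 (SE 0.45, adjusted p = 0.00971) from its low level in AV, and 5.69% of genes passed. In the 3 animals that gave both nuclei, both genes were lower in AD each time. Leaving out AD library 1 ended both calls (adjusted p = 0.132 for Foxp1 and 0.0998 for Foxp2). The Foxp1 call was also lost without AD library 2 (adjusted p = 0.0656) and the Foxp2 call without AD library 4 (adjusted p = 0.0883). Both calls were also lost with limma voom and the animal as a random block (adjusted p = 0.277 for Foxp1 and 0.525 for Foxp2) and in a fit of the compared groups alone (0.0656 and 0.584). In edgeR's test both calls were kept with the amplification date as a term (Foxp1 -1.28, adjusted p = 0.0230, and Foxp2 -2.18, adjusted p = 0.000257). They were also kept without animals recorded at an age above 400 (Foxp1 -1.29, adjusted p = 0.0307, and Foxp2 -2.19, adjusted p = 2.5e-05). Without AD library 3 the Foxp2 difference was -2.80. AD against LD gave the largest Foxp2 difference of the 14 comparisons between nuclei, -4.91 on the log2 scale (SE 0.54, adjusted p = 2.07e-12), where 6.73% of genes passed. AD and LD share no amplification date, so that date and nucleus cannot be told apart in the direct comparison. A fit with the date as a term, which links them through AV, gave -7.48 (adjusted p = 1.92e-13), and leaving out AD library 3 gave -6.06. The AV libraries on the date of LD were the 3 of animals recorded at an age above 400, with 8, 212 and 15 counts of Foxp2. The date term thus also takes up the difference between older and younger animals in AV, and the 2 cannot be told apart. Foxp1 did not differ between them beyond the spread, with a log2 difference of 0.06 and a 95% interval of -0.71 to 0.83. These 3 comparisons share libraries, and their values are not independent of each other.

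Within AV the libraries split by age and date, which coincide. The 3 AV libraries of animals recorded at an age above 400 had 0.554, 12.5 and 1.38 CPM of Foxp2, against 40.4, 23.4, 26.5, 12.9 and 20.3 CPM in the 5 libraries of animals at lower ages. The groups did not overlap. They were made on separate amplification dates, so age and date cannot be told apart, and the split was not tested. Foxp1 averaged 112 CPM in both sets. On the date of the older animals, LD had 138 and 249 CPM of Foxp2, against 0.554 to 12.5 CPM in AV, a 40.0-fold ratio of means. On the date of the others, AD had 0.127 to 14.3 CPM of Foxp2, against 12.9 to 40.4 CPM in AV.

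Among the nuclei labelled from cingulate cortex, RE, a midline nucleus that links prefrontal cortex and hippocampus, had less Foxp1 than AM and IAD. It had 94.9 to 335 CPM with a median of 222 CPM in 8 libraries, against 799, 708, 1043 and 717 CPM in AM. Every RE library lay below every AM and IAD library. The log2 difference was -1.88 against AM (SE 0.34, adjusted p = 8.45e-05), with 1.84% of genes called, and -1.80 against IAD (SE 0.37, adjusted p = 0.000775), with 1.33% called. The 4 animals that gave both RE and AM had 136, 204, 94.9 and 180.2 CPM in RE, against 799, 708, 1043 and 717 CPM in AM, and all 8 libraries were made on the same date. The RE libraries also split by amplification date, with 94.9 to 204 CPM of Foxp1 on the date shared with AM and 239 to 335 CPM on the other. RE and IAD share no date, so that date and nucleus cannot be told apart there.

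Foxp2 had a mean of 153 ± 62.6 CPM (n = 8) in RE, against 84.9 ± 21.0 CPM (n = 4) in AM, and did not pass the test (log2 difference 0.85, adjusted p = 0.487). Against IAD, with 77.0 ± 26.6 CPM (n = 3), the log2 difference was 0.99 (adjusted p = 0.574). On the date that RE shares with AM, Foxp2 had 75.4 to 143 CPM in RE, against 61.2 to 112 CPM in AM. The RE libraries of the other date had 130 to 246 CPM. With the amplification date as a term the log2 difference of RE minus AM was 0.37 (adjusted p = 0.944). AM and IAD differed in neither gene beyond the spread. The 95% interval of the log2 difference ran from -0.80 to 0.95 for Foxp1 and from -0.84 to 1.12 for Foxp2. In AM minus IAD 0 genes, or 0%, passed edgeR's quasi-likelihood test, 504 had an unadjusted p under 0.05, and DESeq2 called 240.

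**Figure D3:**
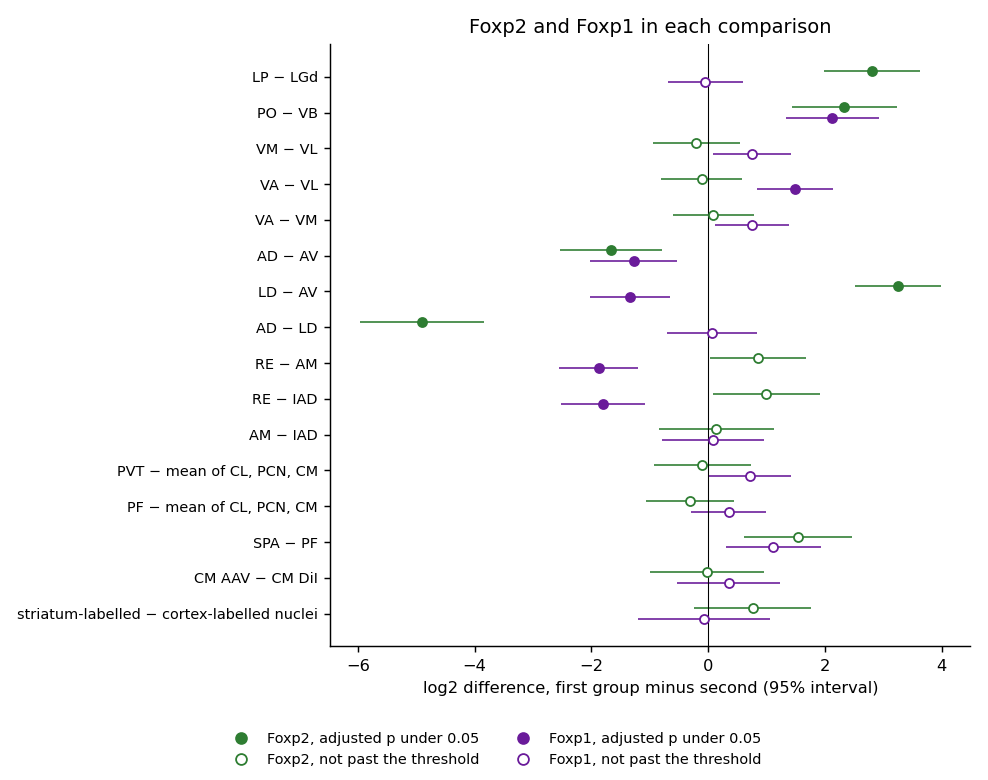
Log2 differences of Foxp2 and Foxp1, first group minus second, on the horizontal axis for each comparison on the vertical axis; bars are 95% intervals from the SE and filled points passed an adjusted p under 0.05. Foxp2 spans -4.91 in AD minus LD to 3.25 in LD minus AV, and Foxp1 spans -1.88 in RE minus AM to 2.13 in PO minus VB.

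Of the 11 comparisons between nuclei with a shared cortical target, 6 were called for Foxp1 and 5 for Foxp2. Both genes were called in 3, namely PO minus VB and AD minus AV, where they had the same sign, and LD minus AV, where they had opposite signs. With limma voom and the animal as a random block, 4 of the 6 and 5 calls were lost, and of the 3 comparisons PO minus VB kept both. The comparisons share groups and are not independent.

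Among the striatum-labelled nuclei neither gene was called in any of the 3 comparisons made. PVT, a midline nucleus, had 277, 321 and 217 CPM of Foxp1, against 87.4 to 206 CPM in the 12 libraries of CL, PCN and CM, intralaminar nuclei. The libraries did not overlap, and the log2 difference of 0.72 did not pass over all genes (adjusted p = 0.352, 2.18% called). In a fit of the compared groups alone it passed (adjusted p = 0.0334). PVT shares no amplification date with CL, PCN or CM, so date and nucleus cannot be told apart. In the 3 animals that gave both PVT and CL, Foxp1 was higher in PVT in all 3 and Foxp2 in 1. Foxp2 in PVT had 243, 268 and 199.7 CPM, against 139 to 369 CPM in CL, PCN and CM, with a 95% interval of the log2 difference of -0.93 to 0.73.

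PF, the caudal intralaminar nucleus, was set against CL, PCN and CM and passed the test for neither gene. Foxp1 averaged 210.0 ± 47.2 CPM (n = 4) in PF and 166 ± 37.6 CPM (n = 12) in the others, a log2 difference of 0.35 with an interval of -0.30 to 1.00. Foxp2 averaged 204 ± 15.8 CPM (n = 4) in PF and 255 ± 58.1 CPM (n = 12) in the others, a log2 difference of -0.32 with an interval of -1.07 to 0.44. In this comparison 0.0605% of genes passed.

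SPA, which borders PF, had more of both genes in every library. Foxp2 had 648, 676, 609 and 434 CPM in SPA, against 182, 217, 202 and 214 CPM in PF. Foxp1 had 506, 471, 447 and 398 CPM in SPA, against 162, 271, 188 and 219 CPM in PF. The log2 differences, 1.54 (SE 0.47, adjusted p = 0.215) and 1.12 (SE 0.42, adjusted p = 0.535), did not pass in the fit of all libraries, in which 0.309% of genes were called. In a fit of SPA and PF alone both passed, with adjusted p-values of 4.65e-05 for Foxp2 and 0.000653 for Foxp1, and likewise with limma voom and the animal as a random block (8.79e-06 for Foxp2 and 0.00419 for Foxp1). DESeq2 on all libraries called Foxp2 (adjusted p = 0.0439) and not Foxp1 (adjusted p = 0.249). SPA and PF share no amplification date, and date and nucleus cannot be told apart. The 2 animals that gave both nuclei had more of both genes in SPA.

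Between the classes of target neither gene passed the test. All 7 striatum-labelled nuclei compared were labelled with AAV and all 15 cortex-labelled nuclei with DiI, so target and tracer cannot be told apart. With counts summed per nucleus, Foxp2 had 213 to 611 CPM with a median of 264 CPM in the 7 striatum-labelled nuclei, against 6.04 to 543 CPM with a median of 133 CPM in the 15 cortex-labelled nuclei. The log2 difference of 0.76 (SE 0.51, adjusted p = 0.307) did not pass, while 18.4% of 15440 genes did. Foxp1 had 157 to 471 CPM with a median of 212 CPM in the striatum-labelled nuclei, against 37.0 to 840.0 CPM with a median of 113 CPM in the cortex-labelled nuclei, a log2 difference of -0.07 (SE 0.58, adjusted p = 0.944). The cortex-labelled nuclei thus held both the lowest and the highest level of Foxp1. On the 2 amplification dates that hold both classes, CM, IMD and PVT stood higher than VA, VL and VM in both genes, by 1.16 for Foxp2 (adjusted p = 0.00948) and 1.43 for Foxp1 (adjusted p = 0.0410). That set of nuclei differs from the full set, and its CM libraries were those labelled with DiI. Its counts were summed per nucleus and date, with the date as a block, so VA, present on both dates, entered more than once. The nucleus is thus not the unit of these p-values.

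CM was labelled with both tracers, and Foxp2 there had 193, 261, 311 and 369 CPM after AAV, against 346, 282 and 233 CPM after DiI. Foxp1 had 195, 181, 206 and 184 CPM after AAV, against 150.1, 165 and 134 CPM after DiI, with no overlap. The log2 differences were -0.02 (95% interval -0.997 to 0.96) for Foxp2 and 0.35 (-0.53 to 1.23) for Foxp1, and neither passed, with 1 gene or 0.00605% called. DESeq2 called 474 genes there. The AAV and DiI libraries of CM share no amplification date. The DiI libraries came from males at recorded ages of 98 and 99, and the AAV libraries from both sexes at 125 to 136. Tracer, date and age cannot be told apart in CM. The AAV library of AM had 123 CPM of Foxp2, against 61.2, 84.5, 81.6 and 112 CPM in the AM DiI libraries. It had 1167 CPM of Foxp1, against 708 to 1043 CPM after DiI, and with 1 library this difference has no replicate check.

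Which of the 2 genes was the more abundant depended on the nucleus. Levels were set against each other per kilobase of exon, as log2 of Foxp2 over Foxp1. In 7 nuclei every library had more Foxp2, in 7 every library had more Foxp1, and in 8 the libraries were mixed. These counts depend on the exon length used, which joins the exons of all annotated transcripts. The lowest PCN library stood at 0.0042 and the highest RE library at 0.020. Without the shared Foxp1 bases the mean ratio moved from 0.491 to 0.445 in PCN and from -0.783 to -0.830 in RE. A shift of that size changes the sign of those libraries. The ratio was highest in LP, at 2.72 ± 0.64 (n = 9), with 33.9 ± 9.93 CPM per kilobase of Foxp2 and 5.26 ± 2.06 CPM per kilobase of Foxp1. LD at 1.73 ± 1.12 (n = 5), PO at 1.61 ± 0.43 (n = 7) and VL at 1.28 ± 0.36 (n = 6) followed. It was lowest in AD, at -4.42 ± 2.13 (n = 4), and in AV, at -3.66 ± 2.12 (n = 8), where Foxp2 was lowest. IAD at -3.63 ± 0.48 (n = 3) and AM at -3.53 ± 0.50 (n = 4) had a similar ratio at a high level of Foxp1, 56.3 and 59.4 CPM per kilobase, against 4.71 and 5.20 CPM per kilobase of Foxp2. VPMpc had a ratio of -1.52 ± 0.32 (n = 6) with much of both genes, and SPA of 0.11 ± 0.17 (n = 4). The ratio in LGd was -0.01 ± 0.82 (n = 5), against 2.72 in LP, its pair by target.

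**Figure D4:**
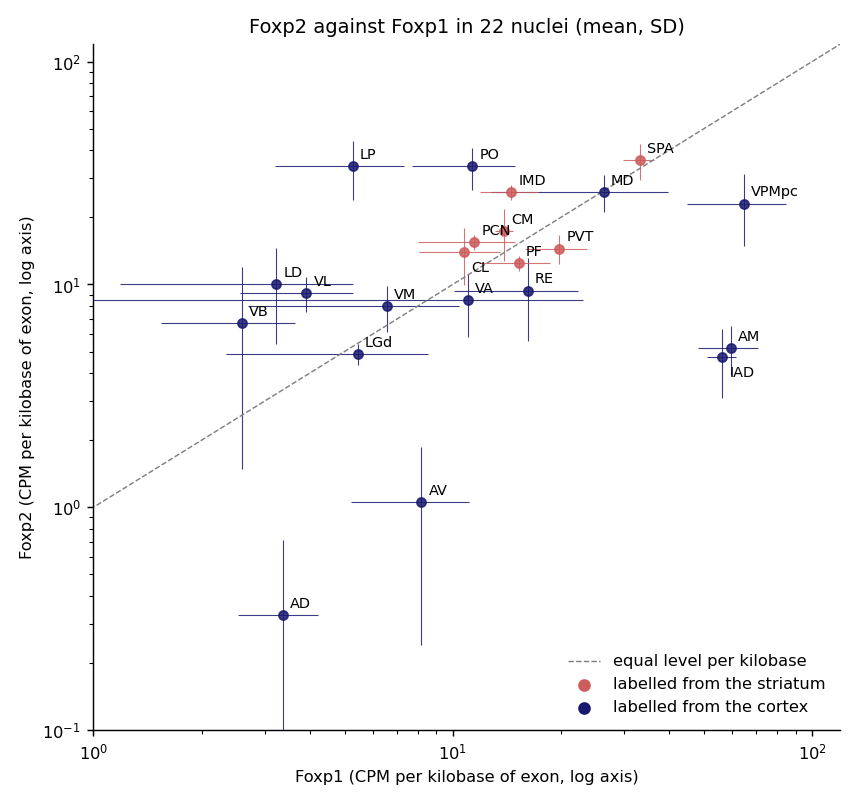
Foxp2 on the vertical axis against Foxp1 on the horizontal axis in the 22 nuclei, both as CPM per kilobase of exon on log axes; points are means over libraries, bars are SD, cut off where they would pass the lower end, and the dashed line marks equal levels. LP and PO lie above the line at about the same Foxp2 level, AM and IAD lie far below it, and AD and AV lie lowest.

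Across nuclei the genes were only loosely related. Pearson's r of the nucleus means of log2 CPM was 0.335 and Spearman's rho 0.337 over 22 nuclei, which share animals and dates. Without AD and AV, the nuclei farthest from the median of Foxp2, r was 0.175 over 20 nuclei. Without VPMpc and AM, the farthest in Foxp1, it was 0.382. Over the 15 cortex-labelled nuclei alone r was 0.258 and over the 7 striatum-labelled nuclei 0.689, where rho was 0.321. Within nuclei, r over libraries was positive in 14 and negative in 8 of the 22. These are descriptions with no test.

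Other genes followed the pattern of each member more closely. Among the 8519 genes that averaged 10 CPM or more, the pattern of Foxp1 over the 22 nuclei was most like those of Ncam1 (r = 0.828), Plcxd3 (0.821), Gpm6a (0.819), Dpysl3 (0.812) and Tmtc2 (0.810). Ncam1 codes for a neural cell adhesion molecule, Gpm6a for a membrane glycoprotein of neurons and Dpysl3 for a cytoskeletal protein of growing axons. Ncam1 had 853 ± 174 CPM (n = 4) in SPA, against 131 ± 38.5 CPM (n = 6) in VL, the nuclei with its highest and lowest mean. Gpm6a had 1427 ± 434 CPM (n = 6) in VPMpc, where Foxp1 also had its highest mean, against 292 ± 53.2 CPM (n = 6) in VL. The most opposite patterns were those of Flt3 (-0.870), a receptor tyrosine kinase, Slc25a4 (-0.851), the mitochondrial ADP/ATP carrier, and Anxa5 (-0.845), a calcium-dependent phospholipid-binding protein. Anxa5 had 109 ± 31.5 CPM (n = 4) in VB, where Foxp1 was lowest, against 7.16 ± 4.80 CPM (n = 6) in VPMpc. Without VPMpc and AM the r values of these 8 genes kept their sign and ran in size from 0.745 for Dpysl3 to -0.874 for Flt3.

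For Foxp2 the likeness rested largely on AD and AV. The closest genes were Lrrtm3 (r = 0.900), a postsynaptic adhesion protein, Zfp462 (0.878), a zinc finger protein, Hrh2 (0.874), the histamine H2 receptor, Shh (0.868), the secreted morphogen sonic hedgehog, and Tmcc3 (0.867). Like Foxp2, Lrrtm3, Zfp462 and Hrh2 had their lowest mean in AD, at 0.793 ± 1.59, 0.125 ± 0.0857 and 0.124 ± 0.144 CPM (n = 4). Shh had its lowest mean in AV, at 1.92 ± 2.33 CPM (n = 8), and its highest in MD, at 37.3 ± 34.5 CPM (n = 6). The most opposite were Ubxn2a (-0.811), Col27a1 (-0.799), a fibrillar collagen, and C1ql2 (-0.788), a secreted synaptic protein, each highest in AD. Col27a1 had 466 ± 209 CPM (n = 4) in AD and was listed at 0 in all 6 MD libraries. Without AD and AV r was 0.657 for Shh, 0.626 for Tmcc3, 0.530 for Lrrtm3, 0.404 for Zfp462 and 0.336 for Hrh2 over 20 nuclei. These r values were the extremes of 8519, and genes are not independent of each other.

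Few other forkhead genes differed between nuclei. Of 24 forkhead genes listed, 10 were in the table. Besides Foxp1 and Foxp2, 2 of the other 8 (Foxn3 and Foxo3) passed the F test over nuclei, against 55.1% of all genes. Foxp4, the third neuronal FOXP gene, did not pass, and had 53.6 ± 19.8 CPM (n = 4) in CM and 12.4 ± 4.74 CPM (n = 3) in IAD, its highest and lowest means. In the 11 comparisons with a shared target Foxn3 was called in AD minus AV (log2 difference 1.72, adjusted p = 0.0441) and AD minus LD (2.13, adjusted p = 0.0240), higher in AD, where Foxp2 was lowest. No other forkhead gene of the list besides Foxp1 and Foxp2 was called in any of them by this fit. Of all genes 5.69% passed in AD minus AV and 6.73% in AD minus LD, and from 0 to 6.73% over the 11 comparisons. With 8 genes, so few calls are near that share.

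Of 17 genes for proteins that bind FOXP proteins, 14 were in the table and 7 passed the F test, against 55.1% of all genes, namely Sox5, Nr2f1, Nr2f2, Satb1, Zmym2, Gatad2b and Pias1. Nr2f1 and Nr2f2, the orphan nuclear receptors COUP-TFI and COUP-TFII, were lowest in AD as Foxp2 was. The log2 difference of AD minus LD was -3.34 for Nr2f1 (SE 0.44, adjusted p = 2.08e-09) and -4.97 for Nr2f2 (SE 0.88, adjusted p = 9.94e-06). The median over the 14 genes was -0.02, against 0 over all genes. Satb1, a chromatin organiser, was lower in RE than in AM (-2.64, adjusted p = 0.000396), in the comparison where Foxp1 was lower as well. Sox5 was lower in the striatum-labelled nuclei (-6.71, adjusted p = 5.08e-05), with a mean of 0 CPM in PVT and 274 ± 166 CPM (n = 8) in AV. Target and tracer coincide in that comparison of classes. In LP minus LGd and PO minus VB 0 of the 14 partner genes were called, against 3.62% and 2.65% of all genes.

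Of 7 genes reported elsewhere as regulated by FOXP2, 4 were in the table and all 4 passed the F test, which 55.1% of all genes passed. They moved in no single direction with Foxp2. In LP minus LGd, where Foxp2 was higher, Mef2c, a factor of synapse number, was lower (-0.87, adjusted p = 0.0288) and Vldlr, a reelin receptor, was not called (0.53, adjusted p = 0.385). In PO minus VB, where Foxp2 was also higher, Cntnap2, an axonal adhesion protein, was lower (-0.98, adjusted p = 0.00307). In LD minus AV, again with higher Foxp2, Vldlr was higher (1.04, adjusted p = 0.0128). In AD minus LD, where Foxp2 was lower, Mef2c (-3.03, adjusted p = 1.19e-11) and Vldlr (-3.27, adjusted p = 1.88e-11) were lower as well, and the median of the 4 genes was -1.67, against 0 over all genes. Vldlr had its highest mean in LP, at 254 ± 72.1 CPM (n = 9), and its lowest in AD, at 22.8 ± 8.48 CPM (n = 4). In AD minus AV, where Foxp2 was lower, Mef2c (-2.34, adjusted p = 1.22e-08) and Vldlr (-2.23, adjusted p = 5.21e-07) were lower. Cntnap2 was lower in RE minus AM (-1.51, adjusted p = 2.21e-07) and RE minus IAD (-1.70, adjusted p = 5.94e-08), where Foxp2 was not called. Srpx2, a secreted synaptic protein, stayed low, with a highest mean of 12.9 ± 12.2 CPM (n = 4) in CM. It was called in RE minus AM (-6.24, adjusted p = 0.0104).

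Sex was recorded for each library, and 8 nuclei had libraries of both sexes. The female mean exceeded the male mean of Foxp1 in 3 of them and of Foxp2 in 4, and the ratio of means ran from 0.538 to 1.42 for Foxp1 and from 0.734 to 1.50 for Foxp2. Without the libraries that stood apart from their group, the female mean of Foxp1 was the higher in 2 nuclei, with a highest ratio of 1.15, and the ratio in VA was 0.825, against 1.42 with all libraries. In IAD, which gave the ratio of 1.15, and in VPMpc 1 library was female, and in VA 1 was male. In RE the 4 libraries of the earlier amplification date were all female and the 3 male libraries all of the later date. In VL the 2 female libraries were the 2 of the earlier date. Sex and date cannot be fully told apart there, and the difference between the sexes was not tested.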

How the data were processed

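Pools of hand-sorted neurons from pronase-treated slices were lysed with PicoPure, given ERCC spike-in RNA, amplified with Ovation RNA-seq v2, whose kit does not mark strand, and sequenced on an Illumina HiSeq, per the labels' protocols. The deposited table holds raw read counts per gene and library; the authors used cutadapt 1.16, STAR 2.5.3a, featureCounts 1.52 and mm10, per the submitters' processing notes. Counts made up 29.3 to 66.8% of uniquely mapped reads in the deposited metadata table, which also gave sex, animal, age and amplification date. Without molecular identifiers, reads are not independent molecules.

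All 120 libraries were fitted once in edgeR 4.0.16 (R 4.3.3) with 1 coefficient per group, TMM scaling and filterByExpr (minimum count 10, minimum total 15), which kept 16527 of 16538 genes. Comparisons were contrasts of that fit, called at an adjusted p under 0.05 (Benjamini-Hochberg); SEs were the log2 difference over the root of F. Classes were compared on counts summed per nucleus, and on the dates with both classes on counts summed per nucleus and date. Likeness used nucleus means of log2 CPM (prior count 2), naming the 5 highest and 3 lowest Pearson r and leaving out predicted genes. limma 3.58.1 and DESeq2 1.42.0 were alternatives. Members, lists and markers were chosen with earlier results of these data known. Exon lengths came from GENCODE M21. The 85 animals gave 1 or more libraries each, so p-values measure the spread between libraries, part of it within animals. Same-numbered libraries came from the same animal in 12 of 78 pairs, among them all 4 pairs of RE and AM. The fitting code was run on counts simulated for the LP and LGd libraries alone, with the same dispersion for all genes and no animal or date effect. That run does not test the fit of all groups. GABAergic, astrocyte, endothelial and habenula markers, an oligodendrocyte marker and the sequences of the members are not reported here.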

Additional observations from a re-analysis of the deposited data

Results flagged for a closer look

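Within-group spread was checked in 40 sets of 4 to 9 libraries, 20 groups for each gene, and in 6 of them a library stood apart from the others. The rule flags about 1 in 20 sets by chance if values are normally distributed. That was not tested for these CPM values, so the chance rate here is not known. A library of LP (DiI 1) had 133 CPM of Foxp1, against 37.8 to 83.5 CPM in the other 8, and its oligodendrocyte marker sum was 140.3 CPM. The PCN library AAV 4 had 87.4 CPM of Foxp1, against 175 to 191 CPM in the other 3, and had the fewest cells (22) and the fewest genes detected (12207) of its group. In VA, library DiI 4 had 553 CPM of Foxp1, against 60.6 to 147 CPM in the other 7, with 108 CPM of Foxp2, inside the range of its group. In VM, library DiI 5 had 193 CPM of Foxp1, against 49.0 to 88.7 CPM in the other 5. VPMpc library DiI 2 had 1397 CPM of Foxp1, against 649.5 to 895 CPM in the other 5, and also the highest Foxp2 of its group, 587 CPM. It had the fewest cells (35) and genes detected (11031) of its group and an oligodendrocyte marker sum of 108.4 CPM. Its animal was recorded at an age of 446. VB library DiI 2 had 238 CPM of Foxp2, against 56.7 to 78.8 CPM in the other 3, with the lowest Foxp1 of its group, 18.9 CPM, the fewest genes detected, 12041, and 47.9 CPM of the microglia gene Csf1r. What set these libraries apart was not tested.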

How the results depend on the processing

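Of 291 values under alternatives other than leaving a library or nucleus out, 269 kept their direction and side of the threshold (correlations and levels: moved by less than the spread). Fitting the compared groups alone ended the calls of Foxp1 in VA minus VL (1.49), AD minus AV (-1.29) and LD minus AV (-1.36) and of Foxp2 in AD minus AV (-1.70), and made calls of Foxp1 in PVT minus CL, PCN and CM (0.71) and in SPA minus PF (1.11) and of Foxp2 in SPA minus PF (1.53). limma voom with the animal as a random block lost the same calls, at 1.14, -1.19, -1.50 and -1.97, and called SPA minus PF in Foxp1 (1.13) and Foxp2 (1.52). DESeq2 called Foxp2 in SPA minus PF (1.55). Without ages above 400, added after seeing the data, Foxp2 passed in SPA minus PF (1.54), Foxp1 no longer passed in LD minus AV (-0.98), and its uncalled difference in AD minus LD turned to -0.31. The uncalled Foxp1 difference in LP minus LGd turned to 0.084 with voom and to 0.18 with the replicate number as a block. That block changed no call; same-numbered libraries deviated together with r of -0.104 to 0.112, above 0.1 throughout in none of the comparisons. On dates with both classes, with counts summed per nucleus and date, the class difference was 1.43 for Foxp1 and 1.16 for Foxp2, and both passed. Pearson's r of the genes was 0.689 over the striatum-labelled nuclei. The cause of these changes was not tested.

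Leaving out single libraries changed 20 of 344 values, and leaving out nuclei 5 of 44. The ranges were -0.22 to 0.36 (Foxp1, LP minus LGd), 0.37 to 0.90 (Foxp1, VM minus VL), 0.80 to 1.64 (Foxp1, VA minus VL), 0.058 to 1.12 (Foxp1, VA minus VM), -0.033 to 0.16 (Foxp2, VA minus VM), -1.43 to -1.13 and -2.80 to -1.28 (Foxp1 and Foxp2, AD minus AV), -1.73 to -1.10 (Foxp1, LD minus AV), -0.17 to 0.44 (Foxp1, AD minus LD), -0.062 to 0.15 and -0.017 to 0.46 (Foxp1 and Foxp2, AM minus IAD) and -0.19 to 0.13 (Foxp2, CM tracers). Leaving out nuclei moved the Foxp1 class difference between -0.32 and 0.18. Leaving out 3 of the 103 libraries in compared groups, all of LP, was not run, and an amplification date term could not be fitted for RE minus IAD, AM minus IAD, PVT, SPA minus PF, the CM tracers or the test over nuclei. Counts of genes called moved by over 1.5 times with DESeq2 in 15 of 17 comparisons, with the compared groups alone in 11, with voom in 8, with the date term in 4, with the sex term in 2 and with the replicate block in 1; on dates with both classes 874 genes were called, against 2837. Depth limits Foxp2 in AD, where the lowest library had 1 count.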
